A study of Sus scrofa with 2 samples.

Results

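Cell division genes are described here in the cochlear lateral wall of Mitf R/r and Mitf r/r pigs. The members are 36 genes given by name, which code for proteins of DNA replication and of mitosis. They were looked up by gene symbol and, where the symbol was blank, by Ensembl name. Of the 36 genes, 31 were found among the 27622 features of the table, each as 1 feature. The other 5 genes (BIRC5, NUSAP1, MCM6, MCM7 and RRM2) had no feature under their name and are not analysed here. Gene descriptions were not used in this search. Of the 31 genes, 4 (BUB1, BUB1B, TPX2 and MCM5) carried no symbol and were found by their Ensembl name.

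The tissue was labelled stria vascularis (SV), the layered epithelium of the lateral wall that keeps up the potassium concentration of the endolymph. Both genotypes carry the r allele of MITF, which arose spontaneously in Rongchang pigs. The heterozygous genotype (R/r) is pigmented and mostly of normal hearing, and the homozygous genotype (r/r) is albino and deaf. RNA-seq was made with 1 library per genotype, and the number of animals behind each library is not given in the sources used here. The labels give the age as P1, whereas the text of the study places the RNA-seq at an embryonic stage. Which of these holds was not settled, so the age at which these cell division genes were read is uncertain.

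A dividing cell copies its DNA in S phase and separates the copies in mitosis. E2F transcription factors switch on the genes of the first step. The MCM helicase opens the double helix, and the PCNA clamp holds the polymerases on it. For the second step the kinase CDK1 is switched on by the A and B cyclins, the chromosomes are attached to the spindle by their kinetochores, and a checkpoint holds the cell back until all are attached. Most genes of mitosis are expressed from late S phase to mitosis and are shut off in resting cells. Their RNA in a whole tissue is generally taken to come from cells in cycle. In bulk RNA of this kind, fewer dividing cells and less RNA per dividing cell cannot be told apart. In the mammalian cochlea the hair cells leave the cycle before birth.

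The deposited values are RPKM, read numbers scaled to the length of a gene's exons and to the depth of the library, so levels of different genes can be set side by side. Low RPKM values of the libraries were whole multiples of what 1 read is worth, and reads could be worked out for 100% of the features above 0. The library totals were 15829244 reads in the R/r library and 14258672 reads in the r/r library, and 89.4% and 89.3% of these fell on features of the table. On 1 kb, 1 read was worth 0.0632 RPKM in the R/r library and 0.0701 RPKM in the r/r library. Where several read numbers would give both values, the smallest are printed, so the true ones may be a multiple. Differences are log2 ratios of RPKM with r/r over R/r and no pseudocount added, so a negative value is a lower level in the r/r library. Brackets hold the exact (Clopper-Pearson) 95% interval that the printed reads give. Where the true reads are a multiple, the interval would be narrower, and counts of genes by reads or by interval could change. These intervals cover counting error only and compare the libraries, not the genotypes. With 1 library per genotype there is no replicate spread, and no difference below was tested.

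Cell division genes were weakly expressed in both libraries. The median level of the 31 genes was 1.43 RPKM in the R/r library and 1.07 RPKM in the r/r library, whereas the medians over the 19347 features above 0 in both libraries were 7.39 and 7.17 RPKM. Only PCNA lay above the median feature, at percentile 75.6 of those features. The lowest was TTK, at percentile 3.01. A level of at least 1 RPKM was reached by 17 of the 31 genes, in both libraries in each case, and the other 14 were under 1 RPKM in both. None of the 31 was listed at 0. The lowest gene had 4 reads over both libraries, the median gene 80 and PCNA 1386, and 11 genes had fewer than 50.

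**Figure D1:**
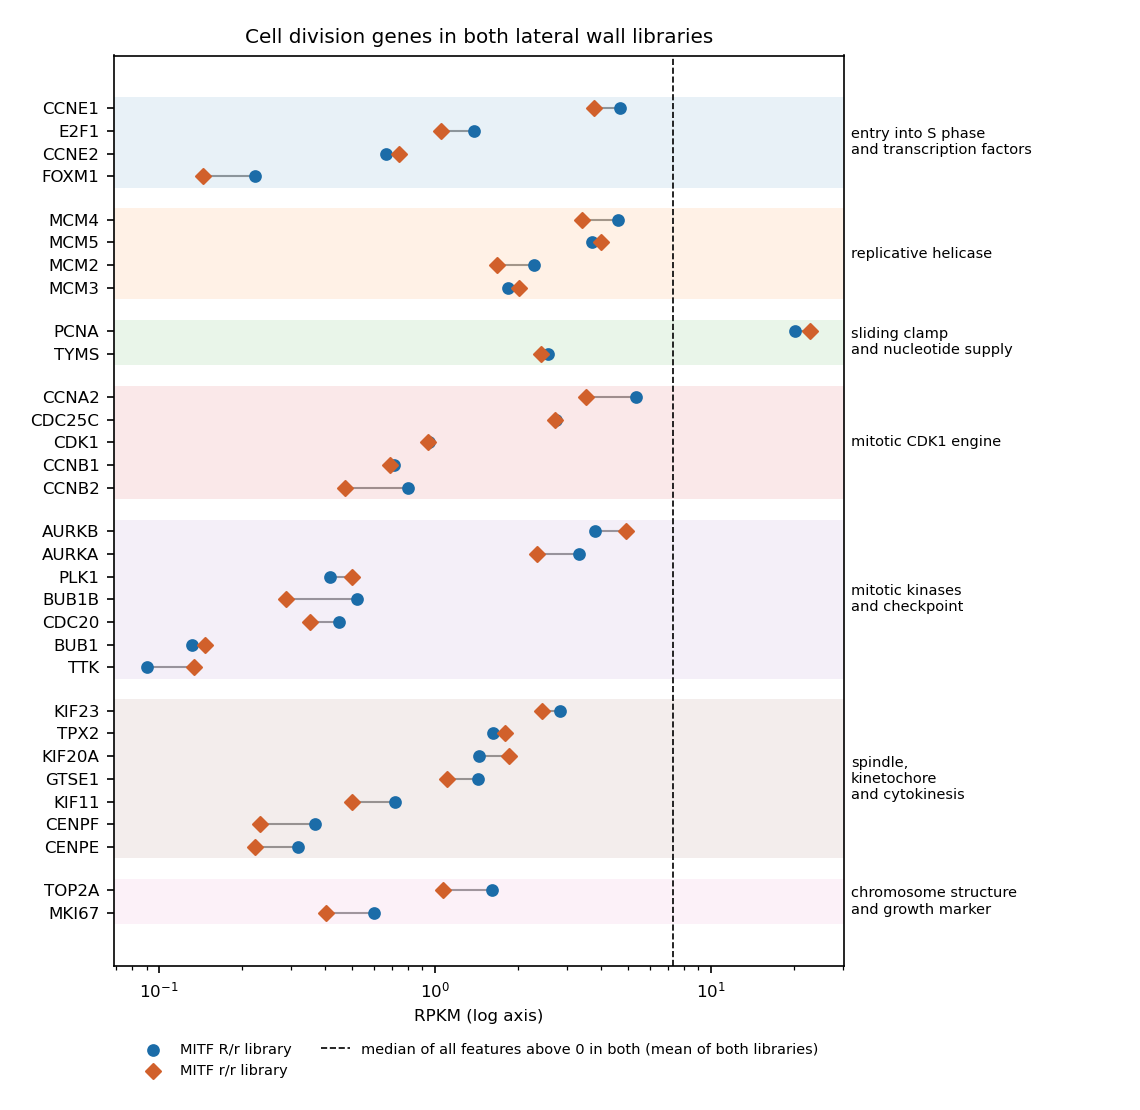
RPKM (log axis) of the 31 cell division genes in the R/r library (circles) and the r/r library (diamonds), by role and by mean level within a role. The dashed line marks the median feature, and only PCNA, at 20.2 and 22.9 RPKM, lies to its right; in most rows the diamond lies to the left of the circle.

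More cell division genes were lower than higher in the r/r library, by small amounts. Of the 31 genes, 21 were lower and 10 higher, and the median log2 ratio was -0.31, against -0.01 over the 19347 features, of which 52.5% were lower. Among the 17 genes at 1 RPKM or more, 11 were lower and the median was -0.22, against -0.02 over 16331 such features, of which 53.3% were lower. None of the 31 genes differed 2-fold, a difference reached by 7.67% of the 19347 features and by 3.99% of the 16331. The log2 ratios ran from -0.85 (BUB1B) to 0.57 (TTK). The interval lay wholly within 2-fold in either direction for 15 genes and reached 2-fold for the other 16, so for these the reads do not bound the difference within 2-fold.

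The interval lay wholly below 0 for 4 genes, namely CCNA2, TOP2A, MCM4 and MCM2, and wholly above 0 for 1 gene, PCNA. Over all 19347 features 12.6% lay below 0 and 9.77% above. A narrow interval needs many reads, so genes of a like depth are the closer comparison. Of 19 members with 50 to 500 reads, 13 were lower (68.4%) and 4 had an interval below 0 (21.1%), with a median of -0.34. None of the 19 had an interval above 0, as PCNA, with 1386 reads, falls outside this range. Among all 6759 features with as many reads, 54.8% were lower, 11.1% had an interval below 0, 7.10% had one above, and the median was -0.03. The shares of members that were lower, or had an interval below 0, were above those of features at that depth, but 4 genes are few. Over all 31 members, 4 intervals below 0 are close to the share over all features.

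With a threshold of 1.5-fold, genes of few reads made up most of the count. At least 1.5-fold lower were 7 of the 31 genes (CCNA2, TOP2A, CENPF, MKI67, FOXM1, CCNB2 and BUB1B), and 0 were 1.5-fold higher, whereas 9.40% of the 19347 features were 1.5-fold lower and 7.22% higher. Of the 11 genes with 4 to 49 reads, 4 were 1.5-fold lower, and of features at that depth 25.5% were. Of the 19 genes with 50 to 500 reads, 3 were, against 7.53% of features.

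**Figure D2:**
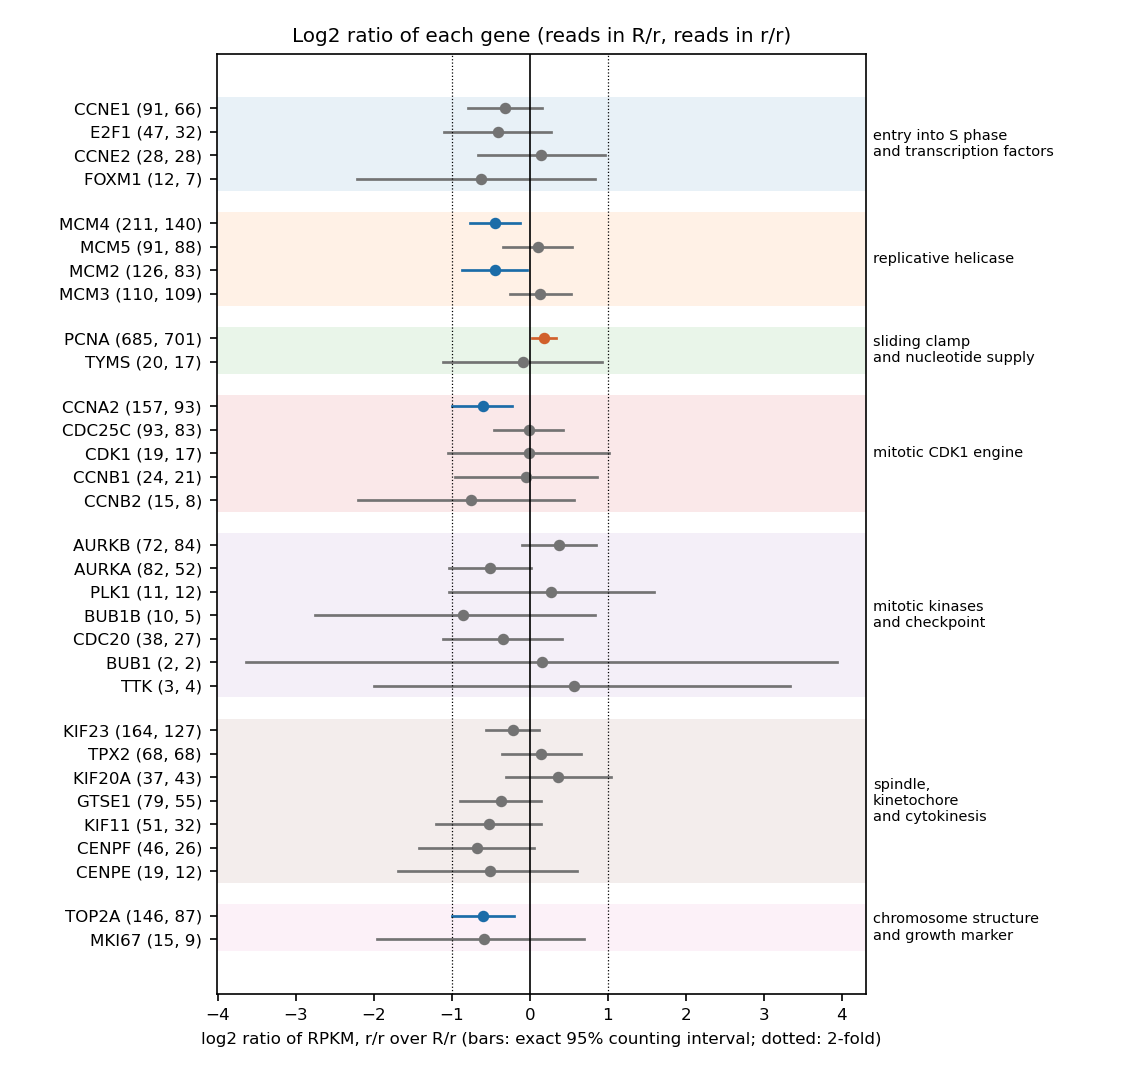
Log2 ratio of RPKM, r/r over R/r, of the 31 genes (points) with the exact 95% counting interval (bars), by role, with the reads of the R/r and r/r libraries in brackets beside each name. Blue marks the 4 genes with an interval below 0 and orange PCNA, the 1 gene with an interval above 0; the dotted lines mark 2-fold, which no point reaches.

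The genes that start S phase came first by role. CCNE1 (ENSSSCG00000002855), the cyclin that activates CDK2 at the start of S phase, had 4.66 RPKM in the R/r library and 3.75 RPKM in the r/r library, from 91 and 66 reads. Its log2 ratio was -0.31 [-0.79 to 0.16]. It was the fourth highest of the 31 genes. CCNE2, its close relative, was under 1 RPKM in both libraries, with 0.664 and 0.737 RPKM from 28 reads in each. E2F1, the activating E2F factor, had 1.38 and 1.05 RPKM with a log2 ratio of -0.40 [-1.10 to 0.27]. FOXM1, the factor that switches on the genes of late G2 phase and mitosis, was among the lowest, with 0.222 and 0.144 RPKM from 12 and 7 reads. All 4 intervals spanned 0. Pooled over these 4 genes, 178 reads stood against 133, a log2 ratio of -0.27 [-0.60 to 0.06] relative to the library totals.

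The replication genes differed in direction. Among the subunits of the MCM helicase, 2 were lower and 2 were slightly higher in the r/r library. MCM4 (ENSSSCG00000006273) had 4.62 RPKM in the R/r library and 3.4 RPKM in the r/r library, from 211 and 140 reads, a log2 ratio of -0.44 [-0.76 to -0.13]. MCM2 (ENSSSCG00000011624) had 2.28 and 1.67 RPKM from 126 and 83 reads, with a log2 ratio of -0.45 [-0.87 to -0.04]. MCM3 (ENSSSCG00000025488), in contrast, had 1.83 and 2.01 RPKM from 110 and 109 reads, a log2 ratio of 0.14 [-0.26 to 0.53]. MCM5 (ENSSSCG00000022823) had 3.71 and 3.98 RPKM, and its log2 ratio was 0.10 [-0.34 to 0.54]. These proteins are subunits of 1 ring, and their RNA did not differ in 1 direction, although the intervals of the lower pair overlap those of the other pair. The 4 genes pooled had 538 and 420 reads, a log2 ratio of -0.21 [-0.39 to -0.02].

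PCNA (ENSSSCG00000030642), the sliding clamp that also serves in DNA repair, was the highest member by far, with 20.2 RPKM in the R/r library and 22.9 RPKM in the r/r library. It had 685 and 701 reads, and its log2 ratio of 0.18 [0.03 to 0.34] was the only one with an interval above 0. TYMS, which makes the thymidylate for new DNA, had 2.57 and 2.42 RPKM from 20 and 17 reads, and its interval of -1.11 to 0.92 leaves its direction unknown. Because PCNA holds such a large share of the reads, it weighs on every sum. All members together had a summed level of 72.4 RPKM in the R/r library and 68.8 RPKM in the r/r library, and without PCNA 52.2 and 45.8 RPKM. The pooled reads gave a log2 ratio of -0.12 [-0.20 to -0.03] with PCNA and -0.24 [-0.34 to -0.14] without it.

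In the CDK1 group, which drives entry into mitosis, 1 of 5 genes had an interval below 0. CCNA2 (ENSSSCG00000009094), the cyclin of S and G2 phase, was the second highest member, with 5.37 RPKM in the R/r library and 3.53 RPKM in the r/r library. From 157 and 93 reads its log2 ratio was -0.60 [-0.99 to -0.23], so that the r/r level was 0.658 of the R/r level. CDK1 itself, listed under its older name CDC2 (ENSSSCG00000010214), was nearly equal, with 0.949 and 0.942 RPKM from 19 and 17 reads. Its partner CCNB1 had 0.709 and 0.689 RPKM from 24 and 21 reads. CCNB2, the other B cyclin, had 0.796 and 0.471 RPKM from 15 and 8 reads, with an interval of -2.20 to 0.57. The feature of CDC25C, the phosphatase that activates CDK1, had 2.75 and 2.72 RPKM from 93 and 83 reads, but the Ensembl table names this feature (ENSSSCG00000014329) GFRA3, a receptor for a neuronal growth factor, so its identity is uncertain. All 5 log2 ratios were below 0, but those of CDK1, CCNB1 and CDC25C were -0.04 or nearer to 0. That of CDC25C was above 0 under scaling by the median, which removed a shift of -0.05. CDK1 and CCNB1, under 1 RPKM, were not rescaled singly, but their ratios were smaller in size than this shift. The 5 genes pooled had 308 and 222 reads, a log2 ratio of -0.32 [-0.58 to -0.07].

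The mitotic kinases and checkpoint genes pointed in both directions. AURKB (ENSSSCG00000028924), the kinase that corrects wrong attachments of chromosomes to the spindle, had 3.81 RPKM in the R/r library and 4.93 RPKM in the r/r library. From 72 and 84 reads its log2 ratio was 0.37 [-0.10 to 0.85]. Its relative AURKA, the kinase of the spindle poles, had 3.34 and 2.35 RPKM from 82 and 52 reads, a log2 ratio of -0.51 [-1.04 to 0.01]. The Aurora kinases thus lay on opposite sides of 0, each with an interval that included it.

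The remaining genes of this group were under 1 RPKM in both libraries. PLK1, a kinase of spindle formation, had 0.414 and 0.502 RPKM from 11 and 12 reads. CDC20, which switches on the anaphase-promoting complex, had 0.448 and 0.353 RPKM from 38 and 27 reads, and BUB1B, a checkpoint protein, had 0.52 and 0.288 RPKM from 10 and 5 reads. The checkpoint kinases BUB1 and TTK rested on very few printed reads. BUB1 had 2 reads in each library (0.131 and 0.146 RPKM), and TTK had 3 and 4 reads (0.0904 and 0.134 RPKM), so that the extreme place of TTK among the ratios has no weight. The 7 genes pooled had 218 and 186 reads, a log2 ratio of -0.08 [-0.37 to 0.21].

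Among the 7 genes of the spindle, kinetochore and cytokinesis, 5 were lower and 2 higher in the r/r library, and each interval spanned 0. KIF23, a motor of the central spindle in cytokinesis, was the best measured with 2.83 and 2.43 RPKM from 164 and 127 reads, a log2 ratio of -0.22 [-0.56 to 0.12]. KIF20A, another motor of cytokinesis, pointed the other way, with 1.44 and 1.85 RPKM from 37 and 43 reads, a log2 ratio of 0.37 [-0.30 to 1.04]. The motors that act in the same step of division thus differed in sign, within their counting error. TPX2, which nucleates spindle microtubules and activates AURKA, had 1.62 and 1.8 RPKM from 68 reads in each library. GTSE1, a microtubule-binding protein of G2 phase and mitosis, had 1.43 and 1.1 RPKM with a log2 ratio of -0.37 [-0.90 to 0.14].

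The other 3 genes of that group were under 1 RPKM in both libraries and lower in the r/r library. KIF11, the motor that pushes the spindle poles apart, had 0.716 and 0.499 RPKM from 51 and 32 reads. CENPF, a large protein of the outer kinetochore, had 0.368 and 0.231 RPKM from 46 and 26 reads, with a log2 ratio of -0.67 [-1.43 to 0.05]. CENPE, the kinetochore motor, had 0.317 and 0.223 RPKM from 19 and 12 reads. Their exon models are long, 7887 bases for CENPF, so that they gathered reads at very low levels per length.

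TOP2A and MKI67 are the usual markers of dividing cells. TOP2A (ENSSSCG00000017473), the enzyme that untangles the DNA of sister chromosomes, had 1.61 RPKM in the R/r library and 1.07 RPKM in the r/r library, from 146 and 87 reads, a log2 ratio of -0.60. Its interval ran from just short of 2-fold lower to -0.20. MKI67 (ENSSSCG00000026302), the Ki-67 antigen on the surface of mitotic chromosomes, had 0.602 and 0.401 RPKM. Its log2 ratio of -0.59 was almost that of TOP2A, but with 15 and 9 reads its interval ran from -1.96 to 0.70. A second feature (ENSSSCG00000015730) is described in the table as MKI67 but carries the Ensembl name NIFK, a nucleolar protein that binds Ki-67. It had 39.6 and 42.3 RPKM, far above every member, and was not counted as MKI67.

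Pooled values for the genes of replication and for those of mitosis stand side by side here and were not tested against each other. The 6 replication genes found had a median log2 ratio of 0.01, with 3 lower and 3 higher, and 1243 and 1138 pooled reads, a log2 ratio of 0.02 [-0.09 to 0.14]. The 21 mitosis genes found had a median of -0.34, with 15 lower and 6 higher, and 1151 and 867 pooled reads, a log2 ratio of -0.26 [-0.39 to -0.13]. Each pool rested in good part on single genes. Without PCNA the 5 other replication genes had 558 and 437 reads, a pooled log2 ratio of -0.20 [-0.39 to -0.02], a value chosen after seeing the data and close to that for mitosis. CCNA2 and TOP2A were the 2 mitosis genes with an interval below 0. Without them, a choice also made after seeing the data, the 19 other mitosis genes had a median of -0.22. Their pooled log2 ratio was -0.15 [-0.30 to -0.01].

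**Figure D3:**
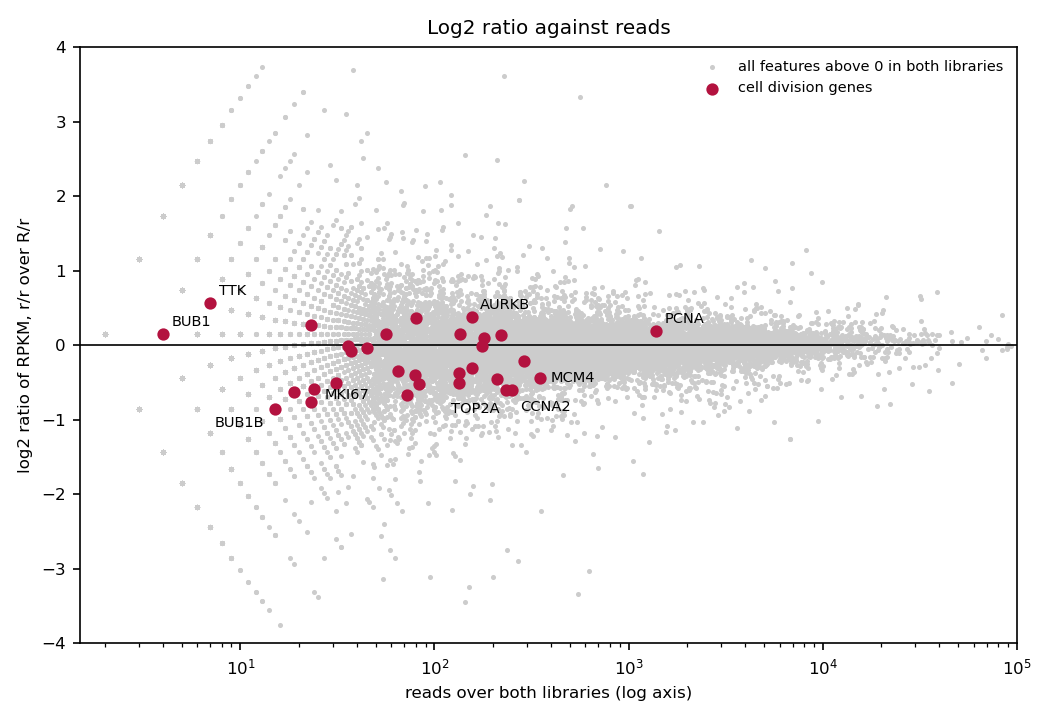
Log2 ratio of RPKM, r/r over R/r, against reads over both libraries (log axis) for the 31 cell division genes (large points, some named) and all features above 0 in both libraries (small points). The members lie within the spread of features of the same depth, mostly below 0, and 35 features fall outside the axes.

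Further genes of the cell cycle were read from 10 lists of 228 gene names, and 201 genes were found. The names include older and newer names of the same gene, such as SGOL2 and SGO2. Of these, 108 were lower and 90 higher in the r/r library, 19 had an interval below 0 and 28 above, and the median log2 ratio was -0.04. Of the 81 with 50 to 500 reads, 40 were lower (49.4%), 9 had an interval below 0 and 9 above, and the median was 0.00. At that depth the members had a median of -0.34, and the difference between the sets was not tested.

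Origin licensing, fork and polymerase genes had 25 of 43 lower and a median of -0.06, with 4 intervals below 0 and 8 above. Among those at 1 RPKM or more the lowest was TIMELESS, a protein that guards the replication fork, with 3.37 and 2.09 RPKM from 288 and 161 reads, a log2 ratio of -0.69 [-0.98 to -0.41]. The highest was MCM8, a relative of the MCM helicase that works in repair of breaks, with 3.25 and 6.02 RPKM from 76 and 127 reads, a log2 ratio of 0.89 [0.47 to 1.32]. Of the nucleotide supply genes 5 were found, with a median of -0.04; SLC29A1, a nucleoside transporter, was lowest at -0.33 [-0.53 to -0.13], and DUT, which clears dUTP, was highest at 0.01.

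Kinetochore and checkpoint genes had 17 of 32 lower with a median of -0.08, and spindle and cytokinesis genes 18 of 28 lower with a median of -0.17. Among their genes at 1 RPKM or more the medians were on the other side of 0, at 0.11 and 0.21. In the spindle list that level was reached in the r/r library alone by 2 genes and in the R/r library alone by 1, and the 8 genes that reached it in both had a median of 0.20. CENPK, a protein of the inner kinetochore, was the lowest of the first list at -0.55 [-0.97 to -0.13]. SGOL2, which protects cohesin at the centromere, was its highest, with 1.91 and 3.58 RPKM from 118 and 199 reads, a log2 ratio of 0.90 [0.57 to 1.25]. In the second list PBK, a mitotic kinase, was the lowest with 6 and 3 reads, and NEK2, a kinase that splits the centrosomes, the highest. NEK2 went from 0.121 to 1.04 RPKM on 4 and 31 reads, a log2 ratio of 3.10 [1.60 to 5.07]. It reached 1 RPKM in the r/r library alone, and PBK in the R/r library alone, so each entered the comparison through the library where it was higher.

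Condensin and cohesin genes, which shape and hold together the chromosomes, had 9 of 13 lower and a median of -0.10. Their lowest was the condensin subunit NCAPG, with 1.24 and 0.686 RPKM from 142 and 71 reads, a log2 ratio of -0.85 [-1.28 to -0.43] and a level above 1 RPKM in the R/r library alone, and their highest was NCAPG2 at 0.16. Phosphatases, ubiquitin enzymes and CKS genes had 9 of 24 lower and a median of 0.02. Their lowest was CDC25B, a phosphatase that starts mitosis, with 27.1 and 18.1 RPKM from 1301 and 785 reads, a log2 ratio of -0.58 [-0.71 to -0.45], and their highest CDKN3, a phosphatase of the cyclin-dependent kinases, with 18 and 33 reads, at 1.03 [0.15 to 1.94]. In the list of E2F, DREAM and pocket protein genes 10 of 17 were lower, with a median of -0.07. MYBL2, a factor for genes of mitosis, was its lowest at -0.74 [-1.39 to -0.12], and LIN52, a subunit of the DREAM complex, its highest at 0.30 [0.12 to 0.48].

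Genes that act before S phase or hold it back were more abundant than the members, with median levels in the R/r library of 14.5 RPKM for G1 cyclins and kinases and 14.8 RPKM for cycle inhibitors and exit genes. Of 8 G1 cyclins and kinases 6 were lower, with a median of -0.04, and CCND2, a D cyclin, was the lowest, with 12.7 and 6.31 RPKM from 92 and 41 reads, a log2 ratio of -1.02 [-1.58 to -0.47]. CDK7, the kinase that activates other CDKs, was the highest among those at 1 RPKM or more, at 0.11. Cycle inhibitors and exit genes had a summed level of 361 RPKM in the R/r library and 388 RPKM in the r/r library, with 4 lower and 6 higher, and CDKN1A, CDKN2A and CDKN2B, which code for further inhibitors, were listed at 0 in at least one library. CDKN1B, the p27 inhibitor, had 89.8 and 97.4 RPKM, a log2 ratio of 0.12 [0.00 to 0.23]. CCNG1, a target of p53, had 75.1 and 88.4 RPKM and a log2 ratio of 0.24 [0.16 to 0.31].

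BTG1, an antiproliferative gene, had 63.7 and 72.3 RPKM, with a log2 ratio of 0.18 [0.09 to 0.28], whereas its relative TOB1, with 53.6 and 48.2 RPKM, was at -0.16 [-0.30 to -0.01]. The range of this list was small, from GADD45G, a stress gene, at -0.19 to BTG2, a further relative of BTG1, at 0.28. Chromatin and tubulin genes high in cycling cells had 6 of 18 lower and a median of 0.06. DNMT1, which copies DNA methylation, was the lowest at 1 RPKM or more at -0.14 [-0.33 to 0.05], and TUBA1C, a tubulin, the highest with 124 and 242 RPKM. The reads of TUBA1C may be shared with near-identical tubulin genes, and its log2 ratio of 0.96 [0.90 to 1.03] is therefore uncertain.

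**Figure D4:**
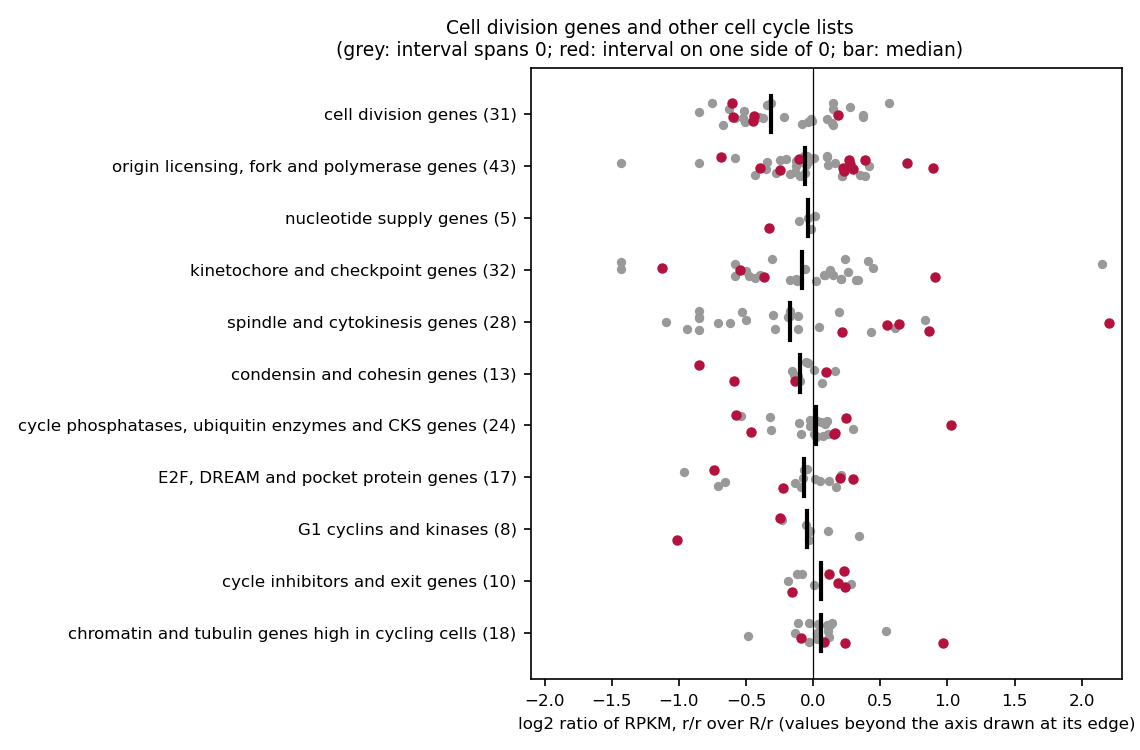
Log2 ratio of RPKM, r/r over R/r, of each gene above 0 in both libraries, for the cell division genes (top row) and 10 other lists of cell cycle genes, with the number of genes in brackets. Black bars are medians, -0.31 for the cell division genes and -0.17 to 0.06 for the other lists; red points have a 95% interval on one side of 0, and 1 value, NEK2, is drawn at the edge.

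Markers of other cells in and around the lateral wall also differed between the libraries, and their part in the differences of the cell division genes was not tested. Of the 10 melanocyte markers 7 were lower and 2 higher, with a summed level of 356 RPKM in the R/r library and 90.9 RPKM in the r/r library. The 2 higher were KIT and TYRP1. TYRP1 had 1 read in each library, and its interval of -6.14 to 6.45 leaves its direction unknown. DCT, an enzyme of pigment synthesis, had 171 and 1.19 RPKM, and MLANA was listed at 0 in the r/r library. KIT was nearly equal, with 43.6 and 44.2 RPKM, a log2 ratio of 0.02 [-0.06 to 0.09]. SOX10 was at -0.21 [-0.58 to 0.16]. The study reports that melanocytes were still present in the r/r SV at the embryonic stage. MITF itself had 51.7 and 37.8 RPKM in its highest feature, a log2 ratio of -0.45 [-0.75 to -0.16], a value that cannot separate the melanocyte isoform from the others. Marginal cell markers, of the potassium-secreting layer of the SV, had 4 of 5 lower and summed to 1586 and 1168 RPKM, so the labelled tissue was present in both.

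Bone and cartilage lie beside the lateral wall and hold dividing cells during growth, and their marker lists had high sums in both libraries. Bone markers had 10 of 11 lower, a median of -0.68 and sums of 1058 and 693 RPKM. Cartilage markers had 7 of 9 lower, a median of -0.23 and sums of 8577 and 7333 RPKM. The cartilage sums were led by COL11A2, a collagen, with 2825 and 2666 RPKM. Of the same list, ACAN had 8.47 and 5.56 RPKM and MATN3 2.03 and 1.39 RPKM. MATN1 and COL10A1 were under 1 RPKM in both libraries. These sums do not settle how much cartilage was present. Erythroid markers had 6 lower and 3 higher of the 10 found, HBZ being listed at 0 in the R/r library, with sums of 3044 and 2458 RPKM, and macrophage and leukocyte markers 7 of 9 lower, with sums of 54.4 and 50.6 RPKM. The sums of these lists were lower in the r/r library, as were those of the melanocyte, marginal cell, endothelial, muscle and neuron markers. Only the Schwann cell sum was higher. A link to the cell division genes was not tested.

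The genes of the remaining lists differed in direction. Endothelial markers had 4 of 7 lower, with sums of 284 and 281 RPKM. Schwann cell markers had 3 of the 5 found higher and sums of 111 and 184 RPKM, led by GFAP with 56.2 and 136 RPKM. Muscle markers had 3 of the 5 found lower, with ACTA1 listed at 0 in the R/r library, and sums of 24.2 and 18.7 RPKM. Neuron markers had 3 lower and 4 higher of 8, with NEFH listed at 0 in both libraries, and sums of 10.7 and 6.3 RPKM. These sums were led by GAP43, with 7.29 and 3.19 RPKM. NEFL, under 1 RPKM in both libraries, went the other way with 3 and 35 reads, a log2 ratio of 3.70 [2.03 to 6.04]. With 1 library per genotype, the genotype, the animal and the dissection cannot be told apart as the source of any of these differences.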

How the data were processed

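The authors mapped 100-base paired reads with TopHat (2.0.7), using Sscrofa10.2 as the reference, and deposited RPKM values in 1 table. The program and annotation used for counting, and use of strand, are not given in the sources used here. Here, library totals were set so that exon-model lengths became whole (80% of 400 genes, within 0.0023 bases or less), and whole reads followed from the RPKM steps (within 0.00024 reads or less). Of 13 mitochondrial genes, 8 had the RefSeq length and 3 a whole fraction of it. The steps were also run on simulated libraries drawn from the recovered lengths and reads. Such a run cannot show whether these are themselves a fraction of the true ones. Blank symbols were filled from an Ensembl name table (1794 features). The members and all gene lists were chosen with earlier results of these data known. Named were all members and, of each further list, the lowest and highest log2 ratio among genes of at least 1 RPKM in a library and above 0 in both, genes 2-fold apart, the 4 highest cycle inhibitors by level, and list sums. Alternatives were pseudocounts, minimums, scalings, thresholds, features summed, and members replaced or left out. A search of promoters could not be made with the reference at hand. In the table, 2 unnamed columns were not used. Results for some genes of the marker lists are not given. Scripts ran in Python 3.11.15 with scipy 1.17.1, pandas 2.3.3, matplotlib 3.10.9 and numpy 2.4.6.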

Additional observations from a re-analysis of the deposited data

How the results depend on the processing

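With 1 library per genotype, samples could neither be paired nor be left out in turn. The median log2 ratio of the cell division genes at 1 RPKM or more, -0.22, ranged from -0.31 to -0.15 over all settings. With no minimum RPKM it was -0.31, with 21 genes below 0 in place of 11. With a minimum of 5 RPKM only PCNA and CCNA2 remained, of which 1 was below 0 with its interval, and the log2 ratio of the summed RPKM, -0.05, turned to 0.05. Without PCNA that ratio was -0.17. At a threshold of 1.5-fold, 2 of these 17 genes were called in place of 0. The share of all features at that level and threshold was not worked out, so the count has no background beside it. Naming the NIFK feature MKI67, chosen after seeing the data, gave a median of -0.15. Scaling to the median removed a shift of -0.05 (log2) and left 3 genes with an interval below 0, without MCM2, whose upper bound had been -0.04; scaling to the upper quartile (-0.01) left 4 and TPM (0.04) gave 5. Of 121 values of single members at 1 RPKM or more, 1 changed sign, that of CDC25C under scaling by the median. Members under 1 RPKM were not rescaled singly. Among the other lists, medians turned in kinetochore and checkpoint genes (0.11, then -0.08 with no minimum and -0.06 with a minimum of 5), in spindle and cytokinesis genes (0.21, then -0.17 with no minimum), in E2F, DREAM and pocket protein genes (0.01, then -0.07 with no minimum, -0.05 with features of one symbol summed, and -0.02 with a minimum of 5 or TPM), in nucleotide supply genes (-0.04, then 0.01 under scaling to the median), and in cycle phosphatases, ubiquitin enzymes and CKS genes (0.02, then -0.02 with TPM). The median of origin licensing, fork and polymerase genes, -0.05, became 0.00 under scaling by the median. Minimums change which genes enter. The cause of the other changes was not tested. Depth limits the 11 members with fewer than 50 reads.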
